A study of Mus musculus with 2 samples.

Results

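The 10 genes described here are Prl, Gh, Pomc, Cga, Tshb, Lhb, Fshb, Oacyl, Pitx1 and Pou1f1, taken by symbol from the 32286 genes of the count table. The first 7 are hormone genes of the anterior and intermediate pituitary, and their UMIs were also summed. The genes were chosen by their UMI counts in these same nuclei, seen in earlier work on the series, so that their levels are a description and carry no test. The question was which single nuclei held many UMIs of these genes and how much lay spread over the other nuclei.

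The nuclei came from vagus nerve ganglia of C57BL/6J mice of genotype Rosa26-floxed-STOP-Cas9-eGFP on a standard chow diet, obtained at 8 to 9 weeks of age. All mice had received AAVrg-Cre, a retrograde virus that carries Cre, in the liver 4 weeks before collection, and no mouse without virus was included. The nuclei of 14 ganglia from 7 females were pooled in 1 library and those of 16 ganglia from 8 males in 1 other, and a difference between sexes cannot be told apart from one between libraries. The floxed allele makes eGFP only in cells that the virus reached, and the nuclei were not sorted. The female library held 17435300 UMIs (unique molecular identifiers, each standing for a captured RNA molecule) over 3791 nuclei, with a median of 2381. The male library held 27529730 UMIs over 4923 nuclei, with a median of 2658. The female library had 13424 Xist and 12 Ddx3y UMIs, and the male library 7 and 1789. The libraries shared 8 barcodes, whose female nuclei held 12 hormone UMIs and whose male nuclei held 1.

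The pituitary sits below the brain, and each of its endocrine cell types makes its own hormone. Somatotropes make growth hormone (Gh), lactotropes make prolactin (Prl) and thyrotropes make the beta chain of thyrotropin (Tshb), and all of them depend on the transcription factor POU1F1. Corticotropes and the melanotropes of the intermediate lobe make proopiomelanocortin (Pomc) and depend on TBX19, and melanotropes also on PAX7. Gonadotropes make the beta chains Lhb and Fshb, and Cga encodes the alpha chain that thyrotropin and the gonadotropins share. PITX1 acts early in the whole lineage. Whether cells of the ganglion itself make any of these hormones was not tested here.

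The stretches before the start sites of Prl, Pou1f1 and Pomc are shown because Prl and Pou1f1 UMIs lay in the same nuclei and Pomc UMIs in others. Sequences are from RefSeq on GRCm38.p6, 250 bases up to the annotated start, 5′ to 3′ on the gene's strand, and capitals mark ATGNATA on either strand, the core of the element that POU1F1 binds.
Prl: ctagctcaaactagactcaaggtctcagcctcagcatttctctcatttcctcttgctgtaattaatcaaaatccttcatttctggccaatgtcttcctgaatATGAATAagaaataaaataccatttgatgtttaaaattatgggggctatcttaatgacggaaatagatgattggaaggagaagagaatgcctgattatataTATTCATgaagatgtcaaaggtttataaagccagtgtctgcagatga
Pou1f1: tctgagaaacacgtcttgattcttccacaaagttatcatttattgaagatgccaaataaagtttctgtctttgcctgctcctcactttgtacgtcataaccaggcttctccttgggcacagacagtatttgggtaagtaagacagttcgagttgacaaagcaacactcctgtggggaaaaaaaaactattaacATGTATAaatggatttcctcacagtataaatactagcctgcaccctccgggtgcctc
Pomc: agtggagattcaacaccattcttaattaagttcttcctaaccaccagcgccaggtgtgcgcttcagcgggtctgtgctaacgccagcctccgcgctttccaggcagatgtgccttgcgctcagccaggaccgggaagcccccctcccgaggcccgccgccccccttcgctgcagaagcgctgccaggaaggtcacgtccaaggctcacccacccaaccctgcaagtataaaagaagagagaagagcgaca
The Prl stretch (chr13:27057320-27057569, plus strand) held 2 matches, at -148 to -142 and at -47 to -41 from the start, and that of Pou1f1 (chr16:65520262-65520511, plus strand) held 1, at -57 to -51. The match of Pou1f1 overlaps a TATAAA in the same stretch. The stretches of Pomc (chr12:3954695-3954944, plus strand), Cga, Tshb, Lhb and Fshb held none. The letters occurred in 2603 of 32851 promoters of the same length, 7.92% of them. TCACACC, a core that TBX19 binds, and TAATCC, which PITX1 binds, were searched on both strands as well. Neither was found in the stretches of the 7 members searched (Prl, Pomc, Cga, Tshb, Lhb, Fshb and Pou1f1), and they occurred in 3.33% and 6.25% of all promoters. A match is a description of the letters, not of binding.

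Hormone UMIs were present in both libraries, and Prl, Gh and Pomc made up most of them. Female nuclei had 3766 UMIs of the 7 hormone genes, 2.16 per 10000 UMIs, and male nuclei had 1606, which is 0.583 per 10000. Prl (chr13:27057570-27065205) had 3333 UMIs, of which 3010 were in the female library. Its level was 1.73 per 10000 UMIs in females (95% exact Poisson interval 1.67 to 1.79) and 0.117 in males (0.105 to 0.131). Gh (chr11:106300271-106301865, minus strand) had 592 UMIs in females and 657 in males, which is 0.340 (0.313 to 0.368) and 0.239 (0.221 to 0.258) per 10000. Pomc (chr12:3954951-3960642) had 33 and 552 UMIs, or 0.0189 and 0.201 per 10000. All intervals here cover counting error only, and positions are those of GENCODE on mm10.

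The other members were rarer. Cga, the shared alpha chain, had 90 UMIs in females and 38 in males, and Tshb had 41 and 30. Oacyl, a gene of the acyltransferase family, followed Pomc, with 24 UMIs in females and 314 in males. Pou1f1 had 162 and 51 UMIs, and Pitx1 had 54 and 86. Fshb had 6 UMIs, all in 4 male nuclei, and Lhb had 0, which, with 3 counts as the limit of a count of 0, allows a share of up to 0.0791% of the female and 0.0609% of the male nuclei with a UMI. Lhb and Ruvbl2, and Tshb and Tspan2, overlap on opposite strands, and no source used here says how reads of overlapping genes were divided.

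Over all genes with at least 20 UMIs, 4.85% were at least 2-fold higher in females and 2.18% at least 2-fold higher in males. Of the 8 members with that many UMIs, 4 (Prl, Pou1f1, Cga and Tshb) were past 2-fold higher in females and 2 (Pomc and Oacyl) in males. Single female nuclei held 12 and 9 of the 41 female Tshb UMIs, and 29, 13 and 9 of the 90 female Cga UMIs. A Tshb UMI was found in 0.580% of female and 0.589% of male nuclei, and a Cga UMI in 1.03% and 0.447%. The log2 ratio of male over female, with 0.5 UMIs added to each sum, was -3.88 for Prl, -2.32 for Pou1f1, -1.89 for Cga, -1.10 for Tshb, 3.38 for Pomc and 3.02 for Oacyl. It was -0.51 for Gh and 0.01 for Pitx1, beside a median of -0.05 over all genes. The members thus did not move together between the libraries, and the direction of the sum was that of Prl.

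The UMIs of Prl, Gh and Pomc fell into a few nuclei with many and a large number of nuclei with 1. For Prl, 48 nuclei with at least 10 UMIs held 35.8% of its UMIs, and 1152 nuclei with exactly 1 UMI held 34.6%. The highest Prl nuclei held 74, 52, 48, 45, 44 and 43 UMIs. For Gh, 6 nuclei with at least 10 UMIs held 14.3%, and 793 nuclei with 1 UMI held 63.5%. The highest Gh nuclei held 62, 47 and 25 UMIs. Pomc was the more concentrated gene, with 46.3% of its UMIs in 14 nuclei of at least 10 and 31.8% in 186 nuclei of 1. A single male nucleus held 82 of the 585 Pomc UMIs.

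The 10 highest nuclei held 13.9% of the Prl UMIs, against a median of 3.33% over 4299 genes with a total within 2-fold of that of Prl. The same share was 16.3% for Gh (median 4.23% over 5558 genes), 38.8% for Pomc (5.68%), 52.1% for Oacyl (7.81%), 60.2% for Cga (14.8%), 42.3% for Tshb (19.0%), 25.4% for Pou1f1 (10.7%) and 15.7% for Pitx1 (13.9%). Among the genes of like total, 0.977% had a higher share than Prl, 0.195% than Oacyl and 37.9% than Pitx1. By this share Pitx1, with at most 3 UMIs in a nucleus, was spread much as other genes of its total were. The share says little of a gene with so few UMIs per nucleus.

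**Figure D1:**
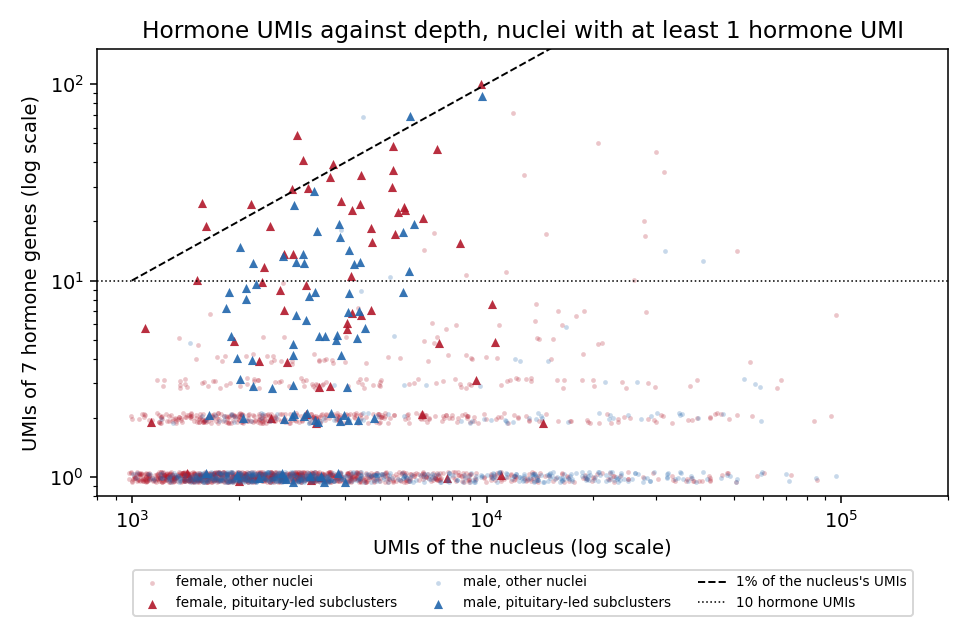
UMIs of the 7 hormone genes against all UMIs of the nucleus, both on log scales, with 1 point per nucleus that had at least 1 hormone UMI (small vertical offsets separate tied points). Triangles are nuclei of the 4 pituitary-led subclusters, the dashed line is 1% of the nucleus's UMIs, and most other nuclei sit at 1 or 2 hormone UMIs over the whole range of depth.

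In all, 73 nuclei held at least 10 hormone UMIs, 48 female and 25 male. Prl was the leading hormone gene in 50 of them, Pomc in 14, Gh in 5, Cga in 2 and Tshb in 2. Of the Prl-led nuclei 45 were female and 5 male, whereas all 14 Pomc-led and all 5 Gh-led nuclei were male. In 57 of the 73 nuclei at least 90% of the hormone UMIs came from 1 gene, and 5 nuclei held at least 5 UMIs of more than 1 hormone gene.

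The female nucleus with the most hormone UMIs had 96 among 9664 UMIs, 42 of Prl, 25 of Gh and 29 of Cga, together with 3 of Pou1f1. A male nucleus with 9686 UMIs held 82 Pomc and 48 Oacyl UMIs, 1 Gh UMI and none of the other hormone genes. The highest Gh nucleus, a male one with 6070 UMIs, held 62 Gh, 3 Prl and 1 Cga UMIs. A female nucleus with 2930 UMIs held 52 Prl UMIs, 1.77% of its RNA and the highest share of all, and no UMI of any other hormone gene. A female nucleus with 2171 UMIs held 12 Tshb and 9 Cga UMIs, both chains of thyrotropin, and 3 of Prl. Another female nucleus, with 4743 UMIs, held 13 Cga and 2 Prl UMIs and neither beta chain. A male nucleus with 5337 UMIs held 7 Cga, 3 Fshb and 2 Pitx1 UMIs, and the series had 6 Fshb UMIs in all.

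**Figure D2:**
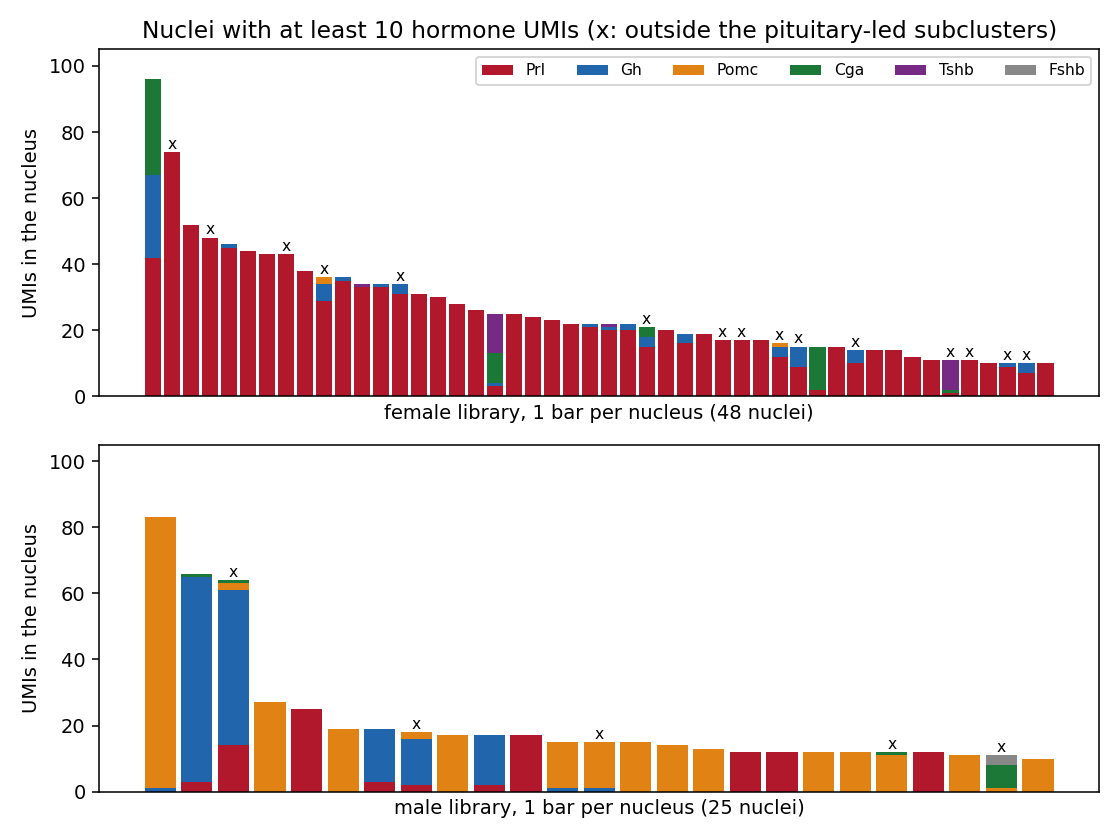
UMIs of each hormone gene in the 73 nuclei with at least 10 hormone UMIs, 1 bar per nucleus, in order of their sum within each library. In the female library (48 nuclei) Prl makes up most bars, and in the male library (25 nuclei) Pomc, Gh and Prl each fill bars of their own, and x marks the 20 nuclei outside the pituitary-led subclusters.

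The stricter definition, at least 10 hormone UMIs that also make up at least 1% of the nucleus's UMIs, gave 9 nuclei, 7 female and 2 male. They held 6.76% of the hormone UMIs (95% Clopper-Pearson interval 6.10 to 7.46). The limit of 1% decided this count, and without it the 73 nuclei held 34.0%. The last nuclei inside the limit had 1.03% and 1.06%, and those just outside it had 0.993%, which is the nucleus with 96 hormone UMIs, and 0.941%.

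Pou1f1 and Oacyl were found with different hormone genes. Of the 50 Prl-led nuclei 35 had a Pou1f1 UMI and 1 had an Oacyl UMI, and of the 5 Gh-led nuclei 4 had a Pou1f1 UMI. Of the 14 Pomc-led nuclei 11 had an Oacyl UMI and 0 had a Pou1f1 UMI. Across all 8714 nuclei, on log2(1 + UMIs per 10000), Pomc and Oacyl had a Pearson correlation of 0.45 (0.50 in the male and 0.01 in the female library), and 34 nuclei had UMIs of both. Prl and Pou1f1 had 0.27, with 0.29 within the female and 0.24 within the male library. Nuclei of 1 library share its pool and its depth, and these values describe the table and carry no p.

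By the same measure over 17097 genes, those most like Pou1f1 were Gm46329 (0.52), Gm14618 (0.51), Gm32647 (0.45) and Gm6999 (0.42), and each kept a positive value within both libraries. The gene most like Prl was Xist, with 0.32 over both libraries but 0.05 within the female and -0.01 within the male library, followed by Pou1f1. The third was Tsix (0.23), with 0.01 within the female library, so that the likeness to both X-linked genes lay between the libraries. Those most like Pomc after Oacyl were Il1rapl2 (0.29), Gnasas1 (0.26), Wdr49 (0.25) and Drd2 (0.24), the dopamine receptor that melanotropes and lactotropes carry. For Cga and Tshb the nearest member was the other one, at 0.16 over both libraries, 0.24 within females and -0.0018 within males. For Gh the nearest gene, Dlk1, reached 0.14.

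To learn what kind of nuclei these were, nuclei were clustered without the 10 genes and without Xist, Tsix, Ddx3y, Uty, Kdm5d and Eif2s3y. Other X-linked genes were kept. Of the 73 nuclei 60 fell into 1 of 18 clusters, which held 443 nuclei, 306 female and 137 male. The adipocyte markers led in this cluster, with a mean log2 fold of 2.74, and the pituitary markers that are no members came next at 0.81. The cluster was therefore split further, again without the members, into 10 subclusters. Pituitary markers led, with a mean log2 fold of 0.75 to 1.32, in 4 of these, which are called pituitary-led here. A further one was led by the same list at only 0.12, had skeletal muscle genes on top and 6 hormone UMIs in 16 nuclei (13 female and 3 male), and was kept out by a limit set after its values were seen.

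The pituitary-led subclusters held 151 nuclei, 65 female (1.71% of the library, 95% Clopper-Pearson interval 1.33 to 2.18) and 86 male (1.75%, 1.40 to 2.15). The share of nuclei was thus alike in both libraries although the hormone genes were not. Their median depth was 3259 UMIs, they held 53 of the 73 nuclei, and 13 of the 151 had 0 hormone UMIs. They held 71.8% of the Pou1f1 UMIs, 59.2% of Oacyl, 55.7% of Pomc, 41.4% of Cga, 31.5% of Prl, 25.4% of Tshb, 19.3% of Pitx1 and 16.9% of Gh. The transcription factor and the Pomc and Oacyl pair were therefore mostly inside these nuclei, whereas most Prl and Gh UMIs were outside them. The cluster that was split had been chosen by its hormone level, so these shares are a description.

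Prl led 2 of the subclusters, Gh 1 and Pomc 1. The lead of the pituitary markers was smallest in the first Prl subcluster, at 0.75, with cerebellar granule cell markers next at 0.48. Of the 10 pituitary markers 5 had 0 UMIs there. The next list was at 0.37 in the second Prl subcluster and below 0 in the Gh and Pomc subclusters (-0.63 and -0.58). In the first Prl subcluster (46 female and 2 male nuclei) Prl had 33.9 UMIs per 10000 (31.6 to 36.4), and 47 of 48 nuclei had a Prl UMI, with a median of 12 and a highest value of 52. Pou1f1 had 4.19 per 10000 there, with a UMI in 40 of the 48 nuclei, and Gh had 0.436. The second Prl subcluster (10 female and 32 male nuclei) had 18.0 Prl UMIs per 10000 (15.7 to 20.6), 1.26 of Tshb and 3.29 of Pou1f1. Its 15 Tshb UMIs lay in 4 of the 42 nuclei, 12 of them in the nucleus described above, and its 14 Gh UMIs lay in 10 nuclei. In the Gh subcluster (7 female and 23 male nuclei) Gh had 17.6 per 10000 (15.2 to 20.4), with a UMI in 25 of 30 nuclei, a median of 2 and a highest value of 62, and Pou1f1 had 1.76.

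The Pomc subcluster (2 female and 29 male nuclei) had 27.3 Pomc UMIs per 10000 (24.4 to 30.4) and 17.0 of Oacyl (14.7 to 19.5). All 322 Pomc and all 200 Oacyl UMIs were in the male nuclei, of which 27 had a Pomc and 23 an Oacyl UMI. Pou1f1 had 0 UMIs in this subcluster, with an upper bound of 0.313 per 10000, below the levels of the other 3 subclusters. Prl had 2 UMIs and Gh 7, and Cga and Tshb had 0. Pitx1, the early factor of the lineage, had 0.593 per 10000 in the Pomc and 0.654 in the first Prl subcluster (0.239 to 1.22 and 0.366 to 1.08), a difference smaller than the counting error.

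Within a subcluster the libraries could be set side by side, from few nuclei and with no replicate. In the second Prl subcluster Prl was at 31.6 per 10000 in the 10 female nuclei (25.6 to 38.5) and at 13.4 in the 32 male nuclei (11.1 to 16.0). In the first Prl subcluster the 2 male nuclei, with 12 Prl UMIs each, were at 27.8 (17.8 to 41.4), a range that holds the 34.2 of the female nuclei. Gh in the Gh subcluster was at 14.5 in the 7 female nuclei (10.3 to 19.9) and 18.7 in the 23 male nuclei (15.8 to 22.1), and these intervals overlap. A single nucleus held 25 of the 38 female and another 62 of the 142 male Gh UMIs. Without them, an alternative chosen after the data had been seen, Gh was at 7.87 (4.19 to 13.5) and 11.5 (9.09 to 14.3). In that subcluster 42 of the 47 female Prl UMIs and 29 of the 42 female Cga UMIs were in the single nucleus with 96 hormone UMIs, and the remaining Cga UMIs were in 1 other nucleus, with 13. The Gh and Pomc subclusters together held 9 female and 52 male nuclei, and here too the sex cannot be told apart from the library.

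**Figure D3:**
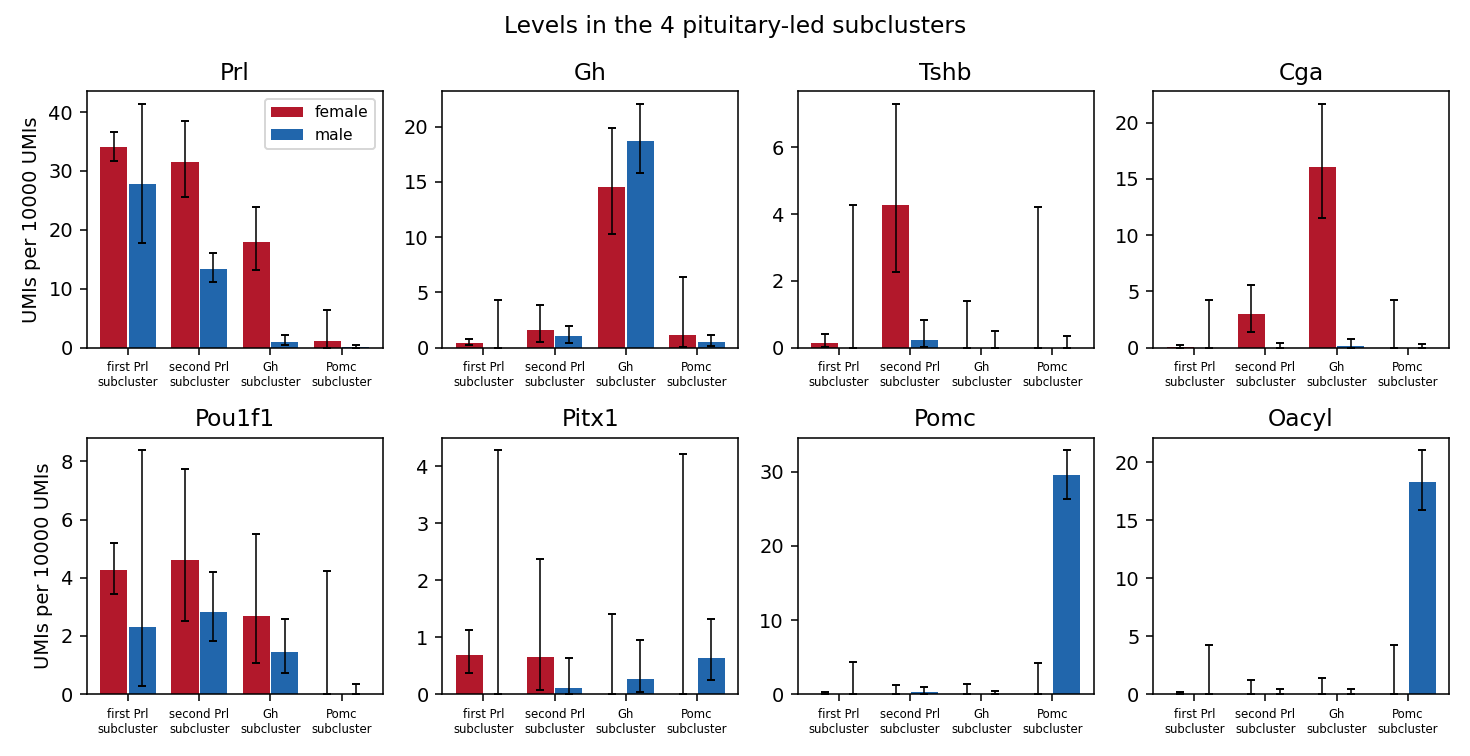
UMIs per 10000 UMIs of 8 genes in the 4 pituitary-led subclusters, in female and male nuclei, with exact 95% Poisson intervals that cover counting error only. Prl and Pou1f1 share subclusters, Pomc and Oacyl are at 29.5 and 18.3 in male nuclei of the Pomc subcluster, and the wide bars belong to the 2 male nuclei of the first Prl and the 2 female nuclei of the Pomc subcluster.

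Other genes of the pituitary lineage were present in the same nuclei. The ratios below compare the 151 nuclei with the 8543 nuclei that were neither in these subclusters nor held 10 hormone UMIs. A gene was counted with at least 20 UMIs in all and 5 in the 151 nuclei, so that a rare gene could enter only where it was high. Over all 11385 genes counted in this way 13.5% were at least 2-fold higher in the 151 nuclei and 8.98% at least 2-fold lower, with a median log2 ratio of 0.09. As the pituitary markers were used to name the subclusters, the counts for them are a description. Lhx3, Tbx19, Six6, Ghrhr, Gnrhr and Chgb, described below, are among these markers, and the naming favoured higher levels of them.

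Of the lineage factors described here, Lhx3, Tbx19 and Six6 were past 2-fold higher and Isl1 was past 2-fold lower. Lhx3, a factor of the early pituitary, had 18 UMIs in 17 of the 151 nuclei and 7 in the 8543, 0.317 and 0.00159 per 10000. Tbx19, the factor of Pomc cells, had 17 UMIs in the 151 nuclei, 15 of them in the Pomc subcluster, and 13 in the 8543. Pax7, the factor of melanotropes, had 15 UMIs in the 151 nuclei, all in 11 nuclei of the Pomc subcluster. It had 2 UMIs in the 8543, and 2 more in 1 nucleus with at least 10 hormone UMIs outside the subclusters. Foxl2, a factor of gonadotropes and thyrotropes, had 4 UMIs in 2 of the 151 nuclei, both in the Gh subcluster, and 8 in the 8543. Isl1, also a factor of sensory neurons, had 0.528 per 10000 against 1.38.

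Receptors differed between the subclusters, whose numbers of female and male nuclei differed too, and the receptor levels were not split by library. Of 10 releasing hormone and feedback receptors 4 were counted and 3 were past 2-fold higher, namely Esr1, Drd2 and Gnrhr. Esr1, the estrogen receptor, had 8.82 UMIs per 10000 against 0.665, with 13.7 in the second Prl, 9.98 in the first Prl, 8.63 in the Gh and 1.86 in the Pomc subcluster. Drd2 had 2.54 in the Pomc and 0.785 in the first Prl subcluster, against 0.0338 in the 8543 nuclei. Ghrhr, the receptor that drives somatotropes, had 8 UMIs in the 151 nuclei, in 6 nuclei of the Gh subcluster, and 3 in the 8543. Gnrhr, the receptor of gonadotropes, had 13 UMIs in the 151 nuclei, in 2 nuclei of the same subcluster, and 9 in the 8543. Trhr, the receptor that drives thyrotropes, had 4 UMIs in 1 nucleus of the second Prl subcluster and 13 in the 8543.

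Genes of hormone processing and granules were higher mainly in the Pomc subcluster. Of 10 such genes, all counted, 4 were past 2-fold higher in the 151 nuclei (Pcsk2, Chgb, Chga and Scg5) and 0 past 2-fold lower, with a median log2 ratio of 0.46. Pcsk2, the convertase that cuts POMC to melanotropin in melanotropes, had 39.9 UMIs per 10000 in the Pomc subcluster, against 2.89 in the 8543 nuclei. It was at 0.927 to 0.980 in the other 3 subclusters, below the level of the 8543 nuclei. Pcsk1, the convertase of corticotropes, was at 0.678 in the Pomc subcluster and at 0.886 in the 8543 nuclei. Of the receptors for pituitary hormones 2 of 10 were counted, and Prlr, the prolactin receptor, was at 1.44 against 0.0459, with 3.33 in the Gh subcluster. Ghr, the growth hormone receptor, was lower, at 0.511 against 2.17.

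Genes of neighbouring tissue were read from lists as well. The 8 genes of the posterior lobe and hypothalamus list (such as Avp and Oxt) had 0 UMIs in the 151 nuclei and 85 in the 8543. A count of 0 in the 151 nuclei has an upper bound of 0.0649 per 10000, above the 0.0193 of the 8543. This list therefore does not tell these sets of nuclei apart. Adipocyte markers, which had led the whole cluster, were at 0.634 summed UMIs per 10000 in the 151 nuclei and 1.26 in the 8543. Neuron markers were at 41.4 summed UMIs per 10000 against 39.1, with 67.6 in the Pomc subcluster, and 0 of the 12 were past 2-fold higher over the 151 nuclei and 5 past 2-fold lower. Summed levels of the blood list were 3.84 against 3.38 and those of skeletal muscle 0.387 against 0.705. The blood list was at 6.07 in the second Prl, 4.80 in the Gh, 3.10 in the first Prl and 2.20 in the Pomc subcluster. In the second Prl subcluster 3 of the 5 blood genes were past 2-fold higher. Satellite glia (4.88 against 9.62), Schwann cell (7.11 against 20.3), fibroblast (4.96 against 7.12), barrier fibroblast (3.68 against 9.24), endothelial (0.827 against 2.39) and macrophage (0.317 against 1.17) markers were all lower in sum. Mural markers were at 1.32 against 1.17 and cerebellar granule cell markers at 3.35 against 3.09, with 3.98 and 8.22 in the Pomc subcluster. Those 2 sums rested on few genes. In the Pomc subcluster 5 of the 8 mural and 6 of the 8 cerebellar granule cell markers had 0 UMIs, and only 1 of each list was counted. Skeletal muscle genes were at 0.848 there, and liver genes over the 151 nuclei were at 0.0352 against 0.0245, from 2 UMIs. The part of other cells in these nuclei was not tested.

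Of the 73 nuclei 20 lay outside the pituitary-led subclusters. Of these, 8 were in neuron-like clusters, 7 in other subclusters of the split cluster, 3 in barrier fibroblast-like clusters, and 1 each in a satellite glia-like and a Schwann cell-like cluster. Their median depth was 13765.5 UMIs, against 3259 in the pituitary-led subclusters. The satellite glia-like nucleus held the most Prl of any, 74 UMIs among 11873, and 6 Pou1f1 UMIs. In the 20 nuclei Pou1f1 had 24 UMIs in 9 nuclei, 0.636 per 10000 (0.408 to 0.947), between the 2.69 of the pituitary-led subclusters and the 0.00818 of the 8543 nuclei. Gm32647 had 6.02 per 10000 in them, against 24.4 and 0.741. The 8 neuron-like ones had a median of 30813 UMIs, and Pou1f1 had 3 UMIs in them, 0.134 per 10000. Scn9a, a sodium channel of sensory neurons, was at 7.85 per 10000 in them and at 6.64 in the remaining neuron-like nuclei. Snap25 was at 10.4 (9.10 to 11.8) against 9.75, and Rbfox3 at 2.01 (1.46 to 2.69) against 1.41. Syt1 was at 14.7 (13.2 to 16.4) against 15.3, and Map2 at 5.58 (4.64 to 6.65) against 6.40. For Snap25, Syt1 and Map2 the interval of the 8 nuclei holds the level of the remaining neuron-like nuclei. A male neuron-like nucleus with 31808 UMIs held 14 Pomc and 14 Oacyl UMIs. In the pituitary-led subclusters Snap25 was at 12.01 and Syt1 at 18.12 per 10000, above both neuron-like sets. Map2 (5.12), Rbfox3 and Scn9a (0.880) were lower there than in both sets. For Snap25 and Map2 the interval there overlapped that of the 8 nuclei. Among Snap25, Syt1, Map2, Rbfox3 and Scn9a, the last differed most between the 8 nuclei and the pituitary-led subclusters. The 8 neuron-like nuclei thus held hormone UMIs beside Scn9a, which was found in all 8. Whether any of the 20 held RNA of more than 1 nucleus was not tested.

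The genes highest in the 73 nuclei were read as ratios of levels to those of all other nuclei. Only genes with at least 20 UMIs in the 73 nuclei were compared, so that a rare gene could enter only where it was high. Gm47888, which overlaps Prl on the opposite strand, led with 26 of its 45 UMIs, in 10 of the 73 nuclei. How reads of the pair were divided is not given. Gzmk, Il1rapl2, Gm6999 and Gm14618 followed within the first 6, at ratios of 51.2 to 61.7. Their UMIs lay in 6, 31, 37 and 34 of the 73 nuclei. In the 9 nuclei of the stricter definition the first were Nexmif, Gm32647, Nrg1 and Pde10a, at ratios of 14.7 to 36.2.

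Outside all these nuclei the hormone genes did not vanish. The 8543 remaining nuclei held 3218 hormone UMIs, 62.9% of those of the female and 52.9% of those of the male library. A hormone UMI was found in 43.4% of the remaining female and 15.2% of the remaining male nuclei. The remaining Prl level was 1.06 per 10000 in females (1.01 to 1.11) and 0.0574 in males (0.0488 to 0.0672). Gh was at 0.303 (0.277 to 0.330) and 0.161 (0.147 to 0.177), and Pomc at 0.0172 (0.0115 to 0.0247) and 0.0725 (0.0628 to 0.0834). The library with more Prl in pituitary-led nuclei had more of it in the others too, and the same was so for Pomc. For Gh the order differed, with 1.89 per 10000 in female and 5.57 in male pituitary-led nuclei, and the higher remaining level in females.

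In the remaining female nuclei, Prl was found in all 10 classes of at least 50 nuclei. It had 0.420 UMIs per nucleus (0.339 to 0.515) in endothelial cell-like nuclei, the lowest class, 0.464 (0.414 to 0.519) in neuron-like nuclei and 0.496 (0.438 to 0.560) in Schwann cell-like nuclei. The other subclusters of the split cluster stood above these, with 0.655 (0.556 to 0.767). The share of nuclei with a Prl UMI was 29.2% to 43.8%. In macrophage-like nuclei, which had a median depth of 1721 UMIs, it was 29.2%, and in neuron-like nuclei, with a median depth of 5707.5, it was 35.5%. In the female pituitary-led nuclei it was 90.8% at a median depth of 3614. Per 10000 UMIs the macrophage-like nuclei were at 2.22 (1.70 to 2.86), with the highest value of the 10 classes, and the neuron-like nuclei at 0.395 (0.352 to 0.441), with the lowest. The order of classes thus depended on the scale, and the source of the Prl UMIs in these classes was not tested. As nuclei with at least 10 hormone UMIs were left out, the highest values were cut from the classes. With only the hormone-high nuclei left out, Schwann cell-like nuclei had 0.523 Prl UMIs per nucleus, against 0.496. Barrier fibroblast-like nuclei then had 0.531, against 0.449, and endothelial cell-like nuclei stayed at 0.420. Male nuclei had 0 to 0.0444 Prl UMIs per nucleus in the 9 classes of at least 50 nuclei.

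The number of UMIs per nucleus rose with depth, but less than depth did. In remaining female nuclei of up to 2000 UMIs there were 0.374 Prl UMIs per nucleus (0.344 to 0.407), and in those over 20000 UMIs 0.728 (0.592 to 0.886). The median depth of these bins was 1482 and 30111.5 UMIs, and Prl per 10000 UMIs fell from 2.52 to 0.202 between them. Gh in males went from 0.0742 (0.0611 to 0.0893) to 0.188 UMIs per nucleus (0.139 to 0.249), and Pomc in males from 0.0278 to 0.0846. After each nucleus was thinned to 1000 UMIs, which left out 19 female nuclei, 17.7% of all female and 1.48% of all male nuclei had a Prl UMI, against 36.7% and 3.70% as sequenced. For Gh these shares were 4.53% and 3.25%, against 12.5% and 8.90%.

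**Figure D4:**
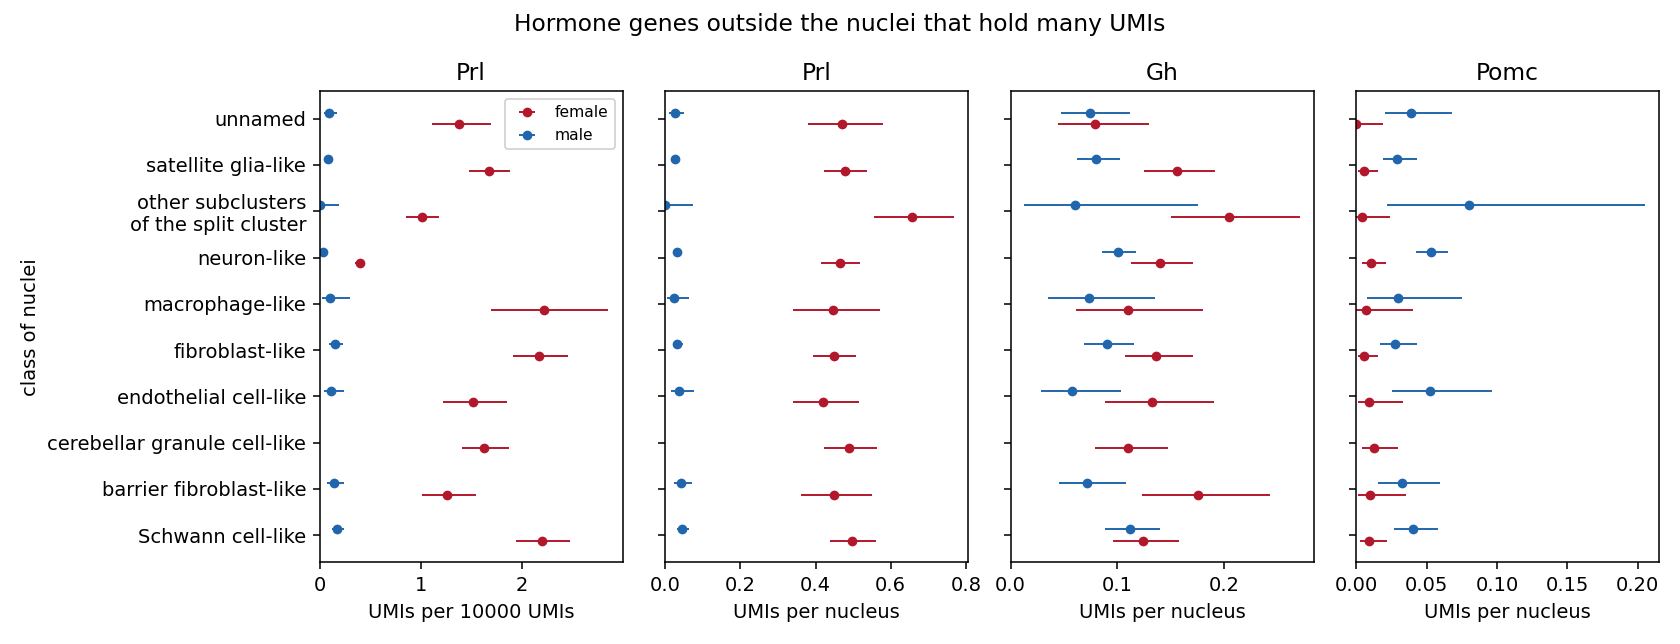
Prl, Gh and Pomc in the remaining nuclei by class and library, for classes of at least 50 nuclei, with exact 95% Poisson intervals that cover counting error only. In the second panel the female classes sit between 0.420 and 0.655 Prl UMIs per nucleus, although per 10000 UMIs (first panel) they range from 0.395 to 2.22. Nuclei with at least 10 hormone UMIs are left out of each class.

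The mixture of hormone genes differed more between the libraries than between classes. Prl made up 70.8% to 85.7% of the UMIs of Prl, Gh and Pomc in the 10 female classes, and 17.1% to 28.9% in the 8 male classes with at least 15 such UMIs. In neuron-like nuclei the share was 75.6% in females (95% Clopper-Pearson interval 71.2 to 79.7) and 17.1% in males (upper bound 21.9). Gh made up 39.3% to 60.2% and Pomc 18.4% to 35.7% in the male classes. The mixture inside the pituitary-led subclusters was another one, with 94.2% Prl in females (92.6 to 95.6), above every other female class, and 51.3% Pomc and 24.8% Gh in males. The female classes had 14.3% to 27.7% Gh, although Gh was 5.67% of the mixture in the female pituitary-led nuclei.

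**Figure D5:**
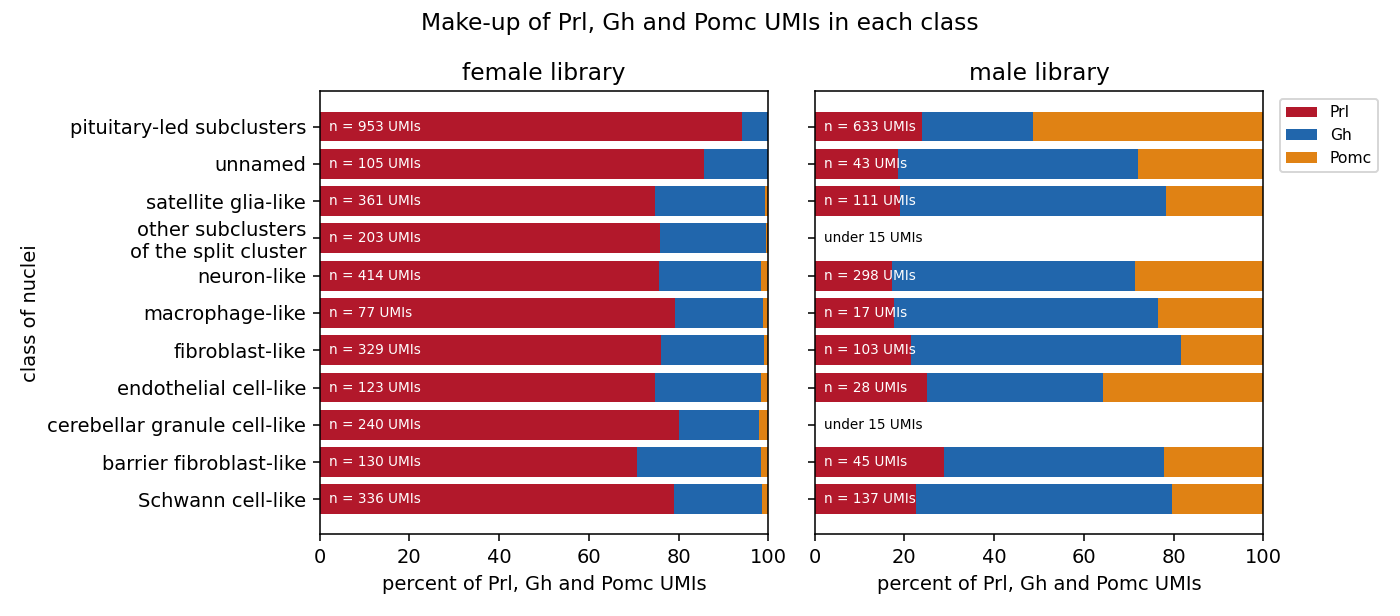
Percent of Prl, Gh and Pomc among their summed UMIs in each class of remaining nuclei and in the pituitary-led subclusters, by library, with the number of UMIs in each bar. The female classes hold 70.8% to 85.7% Prl and the male classes 17.1% to 28.9%, and classes with under 15 UMIs are not drawn.

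Hemoglobin, which red blood cells make, was set beside the members for the same measure of spread. Hbb-bs, a hemoglobin chain, had 6116 UMIs in 3808 nuclei. That was 1.15 times as many nuclei as if its UMIs had been drawn in proportion to the depth of each nucleus. For Prl that ratio was 0.713, for Gh 0.886, for Pomc 0.441 and for Oacyl 0.324, and the median of genes with a total like that of Prl was 0.954. By this measure, which allows for depth but not for library, these members were spread less evenly than hemoglobin, and Gh came nearest to it among them. A difference between libraries lowers the ratio as well. Of the 3333 Prl UMIs 3010 were in the female library, and of the 585 Pomc UMIs 552 were in the male library. The ratios therefore do not give the order of these genes in spread within a library. Oacyl had 99 UMIs in the remaining male nuclei, up to 16 in a nucleus. Among male neuron-like nuclei of these and the pituitary-led sets, 69 had a Pomc and 33 an Oacyl UMI, and 5 had both. In the male pituitary-led nuclei these numbers were 29, 23 and 23. Of the Pou1f1 UMIs 36 of 213 were in the remaining nuclei, in 27 of them.

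The virus carries the end of the human growth hormone gene as its poly(A) signal, which the methods name as the stretch added to the reference. The single row of the count table with no mouse gene ID is instead named EGFP, with 1 UMI in female nuclei and 0 in male nuclei. Whether EGFP counts reads of the poly(A) stretch, and whether such reads were counted for mouse Gh, was not tested.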

How the data were processed

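UMI counts per gene and nucleus were deposited by the authors, who made them with Cell Ranger 7.1.0 on mm10 with an added transgene sequence and with introns. They filtered barcodes with DIEM, which scores debris, and on genes and UMIs, and ran cellranger aggr on both libraries, which evens their depth. No source used here names the annotation release, and coordinates are from GENCODE vM21, matched by gene ID. The 10 genes, the gene lists and the marker lists were chosen with earlier results of these data known.

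Barcode suffixes were assigned to a sex because the numbers of nuclei, 3791 and 4923, equal those the study states, and Xist and Ddx3y were then checked. Nuclei had 980 to 124136 UMIs in the female and 1004 to 121725 in the male library. No further nuclei were removed, and no doublet caller was run. Hormone-high nuclei had at least 10 UMIs of the 7 hormone genes and at least 1% of their UMIs from them. Named genes are the members, the 5 genes with the highest correlation to each member over all nuclei among genes with at least 50 UMIs, the leading genes of nuclei with many hormone UMIs (at least 20 UMIs there), and the genes of the lists. One gene that this rule names is not reported here. Nuclei were clustered (10 principal components, 243 neighbours, Leiden at resolution 2.6, leidenalg 0.10.2) on 23588 genes, and the cluster with most hormone UMIs was split again on 2000 genes with 15 neighbours at resolution 1. A cluster took a name from at least 3 markers past 1.5-fold with at least 10 UMIs each. With 1 library per sex there is no test and no p-value. Intervals are exact at 95% and cover counting error only. The counting of nuclei and ratios was tested on simulated data with planted nuclei and genes. The planted nuclei had a hormone share of 2%, above the highest share found, 1.77%, and the planted genes had more UMIs than any member. The simulation therefore does not cover the lower shares and rarer genes of these data. Python 3.11.15, numpy 2.4.6, scipy 1.17.1 and pandas 2.3.3 were used.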

Additional observations from a re-analysis of the deposited data

How the results depend on the processing

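The definition of a hormone-high nucleus moved the number of such nuclei, their share of hormone UMIs and the level outside them. The number of such nuclei, 9, became 33 at 5 UMIs and 0.5%, 0 at 20 UMIs and 2%, 73 with no limit on the share, 3 without Prl, 2 in the male library alone and 171 when the pituitary-led subclusters were added to the nuclei with 10 hormone UMIs, an alternative chosen after the data had been seen. Their share of hormone UMIs, 6.76%, became 20.7%, 0%, 34.0%, 8.09% (male library) and 40.1% (with the subclusters) under these settings, 10.4% after thinning and 7.54% without Pomc. The level outside them, 1.11 per 10000, became 0.950, 1.19 and 0.800 under the first 3 settings, 1.01 in nuclei over 2000 UMIs, 1.71 after thinning, 0.985 without Pomc, 0.424 without Prl, 2.03 in females alone, 0.536 in males alone and 0.731 outside the subclusters. The log2 ratio of male over female of that level, -1.92 (-2.01 to -1.83), stayed between -1.92 and -1.88 under the first 3 settings and became -1.71 after thinning, -2.58 without Pomc and -2.17 outside the subclusters, and without Prl it turned to 0.014. The direction of the sum between the libraries therefore rested on Prl. Among 9 class levels, 6 moved by more than their interval when each nucleus was classed by its own markers, 5 in nuclei over 2000 UMIs and 4 outside the subclusters, and the level of the adipocyte-like cluster, which held the subclusters, went from 7.32 to 1.24 per 10000 without them. No paired analysis was possible because each sex had 1 library and no replicate numbers. Depth limits the rare members, since Fshb, Tshb and Cga rest on 6, 71 and 128 UMIs.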
